A study of Mus musculus with 18 samples.

Results

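The genes described here are 32 mouse genes that act in germ cells, grouped as genes whose promoters are held silent by DNA methylation in somatic cells. A few of their starts were listed at low levels in WT cells, and some had no listed region, as given below. The 32 genes were followed in splenic CD11b+ cells and CD4+ cells of mice with an intact or a mutated Dnmt3a gene. Every listed region of the whole-genome bisulfite comparison that overlapped a gene's body, or the 2 kb on either side of it, was taken as a region of that gene, with gene models from GENCODE (mm10). This gave 308 of 411770 listed regions in CD11b+ cells and 411 of 553467 in CD4+ cells. A region within 1 kb of any annotated transcription start of the gene was called a start region, and the rest were called body regions. Of the 32 genes, 27 had a start region in CD11b+ cells and 26 in CD4+ cells, 23 of them in both.

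DNA methylation is laid down on CpG sites by the enzymes DNMT3A and DNMT3B and copied at replication by DNMT1. A small set of germ cell genes with CpG-dense promoters is exceptional in that these promoters become densely methylated when the embryo forms its somatic tissues, and the genes stay silent there. In germ cells the same promoters are open, and their products load piRNAs, build the synaptonemal complex, cut and repair meiotic chromosomes or shape sperm and egg.

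The series holds 18 entries from spleen in 4 groups. WT CD11b+ cells, WT CD4+ cells and Dnmt3aR878/+ CD4+ cells have 4 entries from 4 mice each. Dnmt3aR878/+ CD11b+ cells have 6 entries from 4 mice, because 2 of the mice were entered more than once. The study's methods describe a floxed R878H allele recombined by a constitutive Vav1-iCre transgene, so that blood cells of all lineages carry the heterozygous mutation (written here as Dnmt3aR878H/+), on a C57BL/6 background. Its control mice, named Dnmt3a+/+ and called WT here, carried either Vav1-iCre with unmodified Dnmt3a or the floxed allele without Cre, and for the sequenced mice the sources do not say which. Mice were sex- and age-matched young adults, and cells were isolated on magnetic columns.

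Each listed region carries the authors' mean methylation over the WT group and over the Dnmt3aR878H/+ group, the number of CpG cytosines behind it, and a 2-dimensional Kolmogorov-Smirnov p with its adjusted q. Values of single mice and read depth are not used here because the tables hold group means alone, so no mean below has an error between mice and no test across mice was possible. The difference, called loss, is the WT mean minus the Dnmt3aR878H/+ mean in percentage points. A region was called, after the study's criteria, with more than 10 CpG cytosines, a difference above 20 points and q below 0.05. In their titles, 4 of 4 Dnmt3aR878H/+ CD4+ entries carry a library number above 200, against 1 of 4 WT CD4+ entries, 2 of 6 Dnmt3aR878H/+ CD11b+ entries and 0 of 4 WT CD11b+ entries. What that number stands for is not stated, and in group means it cannot be told apart from genotype.

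A few regions just upstream of these starts show what the listed CpGs look like. They are printed from the GRCm38 genome 5′ to 3′ along the gene, in lower case with each CpG in capitals, and were picked because they lie outside the transcribed sequence of the gene and cover both nearly full and partly reduced methylation. All of those printed had the lower mean in the mutant. Upstream regions with a higher mutant mean were also listed, and those of Asz1, Tex15 and Mov10l1 are described with their genes. Dazl in CD11b+ cells (chr17:50293855-50293987, minus strand) was at 97.9% in WT and 96.0% in Dnmt3aR878H/+. Slc25a31 in CD11b+ cells (chr3:40708700-40708766, plus strand) was at 96.7% and 95.6%. Brdt in CD4+ cells (chr5:107331024-107331094, plus strand) was at 95.9% and 91.6%. Stk31 in CD11b+ cells (chr6:49395431-49395500, plus strand), whose sequence holds a CACGTG E-box, was at 95.5% and 82.7%. Tex14 in CD11b+ cells (chr11:87405020-87405063, plus strand), with 21 CpG cytosines in 44 bp, was at 83.2% and 65.0%.
Dazl: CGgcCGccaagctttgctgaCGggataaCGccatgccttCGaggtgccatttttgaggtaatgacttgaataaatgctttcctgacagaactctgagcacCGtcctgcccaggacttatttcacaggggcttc
Slc25a31: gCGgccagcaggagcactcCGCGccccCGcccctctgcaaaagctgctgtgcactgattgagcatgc
Brdt: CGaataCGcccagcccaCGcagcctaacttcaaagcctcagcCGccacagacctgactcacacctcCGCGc
Stk31: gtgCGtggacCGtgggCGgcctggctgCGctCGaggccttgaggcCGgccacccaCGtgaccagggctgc
Tex14: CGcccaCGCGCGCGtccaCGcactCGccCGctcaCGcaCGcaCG

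Start regions of the germline genes were highly methylated in WT cells, and most were lower in Dnmt3aR878H/+ cells by a few points without any being called. In CD11b+ cells the 72 start regions had a median of 89.3% in WT and 82.3% in Dnmt3aR878H/+, and 64 of the 72 (88.9%) were lower in the mutant, where 87.5% of all start regions of protein-coding genes were. Their median loss was 6.91 points, with quartiles at 2.86 and 12.1. In CD4+ cells the 73 start regions had medians of 88.5% and 79.5%, 63 of 73 (86.3%) were lower against 92.8% of all start regions, and the median loss was 7.85 points with quartiles at 4.38 and 10.9. At or above 70% methylation were 60 of the 72 CD11b+ regions in WT and 53 in Dnmt3aR878H/+, and 60 of the 73 CD4+ regions in WT and 51 in the mutant.

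None of these start regions was called in either cell type. Of all start regions of protein-coding genes with more than 10 CpG cytosines, 2.86% were called lower in CD11b+ cells and 3.35% in CD4+ cells, so with 28 and 30 germline start regions above that number of cytosines, a count of 0 is near the background. By size alone, without q, 3 of the 28 CD11b+ regions (Tdrd5, Tex15 and Piwil4) and 1 of the 30 CD4+ regions (Tdrd5) passed, against 13.7% and 14.3% of all start regions. At an unadjusted Kolmogorov-Smirnov p under 0.05 there were 24 of 72 (33.3%) in CD11b+ cells and 29 of 73 (39.7%) in CD4+ cells, where all start regions gave 43.1% and 50.2%. The q was 1 for every germline start region, as it was for 98.8% of all listed CD11b+ regions and 98.6% of CD4+ regions.

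For 24 genes in each cell type a start region lay within 1 kb of the first RefSeq start, or of the gene-model start where no RefSeq promoter was matched. At the region nearest that start, 19 of 24 genes were at 70% or more in WT cells of either type, and 17 of 24 (CD11b+) and 18 of 24 (CD4+) were so in Dnmt3aR878H/+ cells. The mutant mean was the lower of the pair for 22 of 24 genes in CD11b+ cells and 17 of 24 in CD4+ cells. Of the 19 genes with such a region in both tables, 14 were lower in both cell types and 0 were higher in both. The nearest regions of the 2 tables often cover different CpGs of one gene, so the levels below are read within a cell type.

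**Figure D1:**
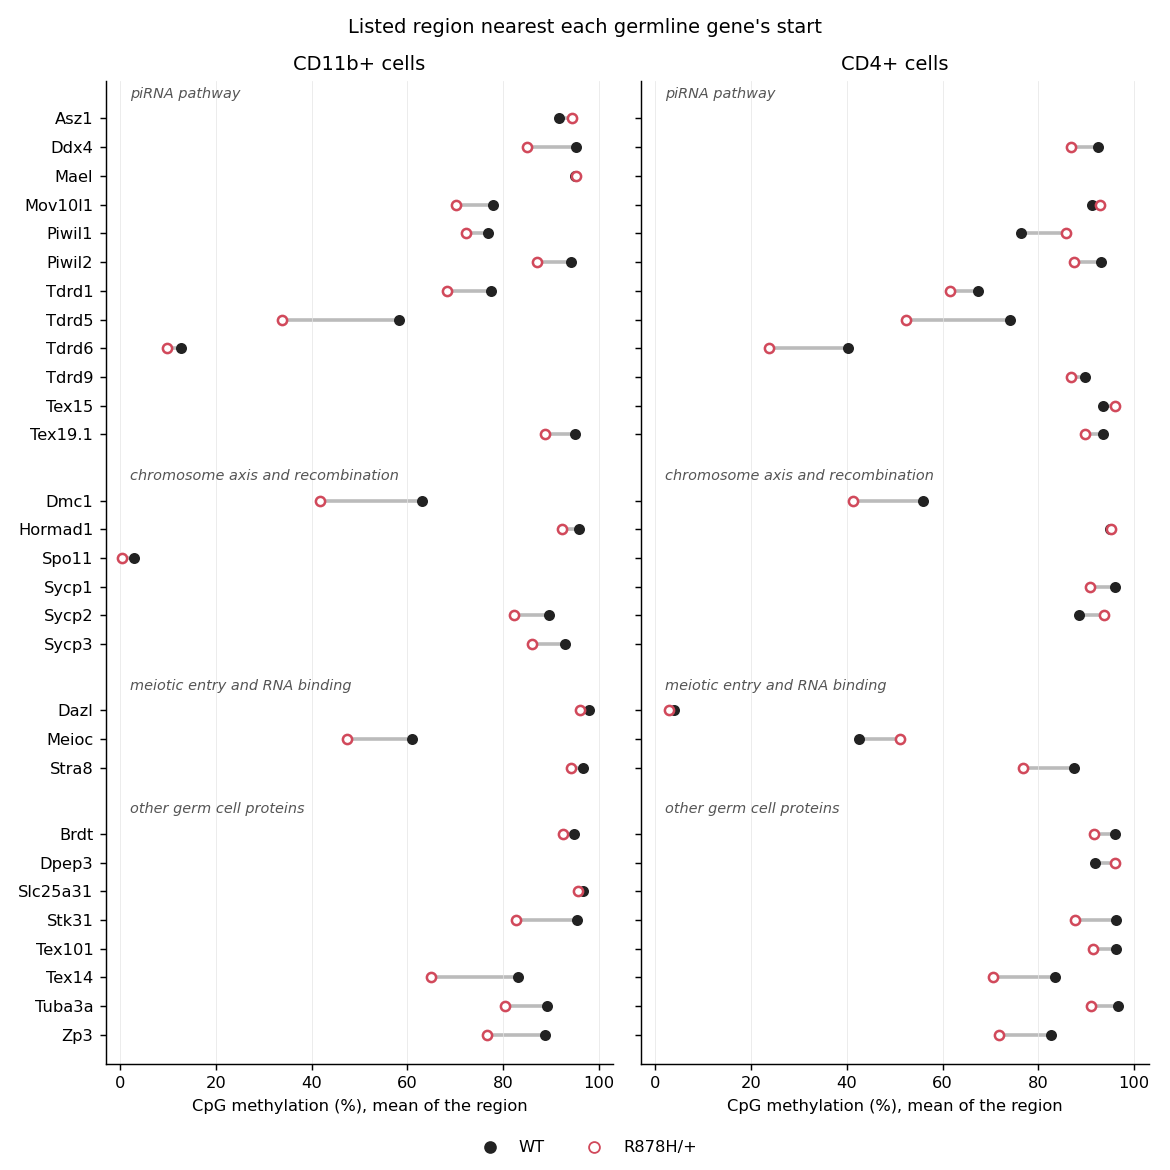
Mean CpG methylation (%) of the listed region nearest each gene's start in WT (filled) and Dnmt3aR878H/+ (open) cells, CD11b+ on the left and CD4+ on the right, with genes grouped by role and no marker where no region was listed. Most pairs sit above 70%, with the open marker to the left, while Tdrd5, Dmc1, Meioc, Tdrd6 and Spo11 in CD11b+ cells start from lower WT levels.

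Genes of the piRNA pathway, which makes small RNAs that silence transposons in germ cells, held 35 start regions (CD11b+) and 40 start regions (CD4+), with median losses of 8.96 and 7.78 points. Ddx4, the VASA helicase of germ granules, was at 95.1% in WT and 85.1% in Dnmt3aR878H/+ CD11b+ cells across 15 CpG cytosines at chr13:112652404-112652490 (positions -180 to -94 from its start), and at 92.5% and 86.8% in CD4+ cells at chr13:112652018-112652315. A further Ddx4 region in an intron (173 to 283 bp) was at 93.6% and 78.3% in CD11b+ cells, with an unadjusted Kolmogorov-Smirnov p of 0.00066 and a q of 1. Ddx4 was thus lower in the mutant at each of its 3 start regions in both cell types. Piwil2, a PIWI protein that binds piRNAs, was at 94.1% and 87.0% in CD11b+ cells, with 93.2% and 87.5% for CD4+ cells over nearly the same stretch across its start. Tex19.1, which acts in transposon control, was at 94.9% and 88.7% in CD11b+ cells, with 93.5% and 89.7% for CD4+ cells.

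Several members of the pathway had no lower mean in the mutant at their nearest region in at least 1 cell type. Mael, a germ granule protein, was at 95.0% in WT and 95.2% in Dnmt3aR878H/+ CD11b+ cells across its start. Asz1, a mitochondrial scaffold of piRNA processing, was at 91.6% and 94.3% there. Tex15, which acts with PIWI proteins in transposon methylation, was at 93.5% and 96.0% in CD4+ cells just upstream of its start. Piwil1 was at 76.8% and 72.2% in CD11b+ cells but at 76.4% and 85.9% in CD4+ cells, and Mov10l1, the helicase of primary piRNA processing, was at 78.0% and 70.2% in CD11b+ cells but at 91.2% and 92.8% in CD4+ cells. The nearest regions of Piwil1 and Mov10l1 thus differed in direction between the cell types. Other start regions of both genes went the other way within a cell type. Piwil1 had a CD11b+ region at 81.4% and 86.0% and a CD4+ region at 80.9% and 73.1%. Mov10l1 had a CD4+ region at 91.1% and 88.2%, and a CD11b+ region near an internal start at 82.0% and 88.3%. Unadjusted Kolmogorov-Smirnov p of the higher nearest means were 0.95 (Mael), 0.29 (Asz1), 0.19 (Tex15), 0.29 (Piwil1, CD4+) and 0.81 (Mov10l1, CD4+).

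The Tudor-domain genes, whose proteins dock PIWI proteins, held the lowest WT levels of the pathway. Tdrd5 was at 58.3% in WT and 33.8% in Dnmt3aR878H/+ CD11b+ cells over 17 CpG cytosines in an intron (chr1:156302738-156303121, 227 to 610 bp from the start), a loss of 24.5 points. In CD4+ cells the overlapping region, at 374 to 749 bp, was at 74.1% and 52.3%, a loss of 21.8 points. These were the largest losses at the nearest region in each table, with unadjusted Kolmogorov-Smirnov p of 0.0015 and 0.00024 and q of 1 in both. Farther into Tdrd5, at 765 to 1453 bp, CD4+ cells were at 95.6% and 91.2%. Tdrd1 was at 77.4% and 68.3% in CD11b+ cells across its start and at 67.4% and 61.4% in CD4+ cells. Tdrd9 in CD4+ cells was at 89.8% and 86.8%. Tdrd6 was at 40.1% and 23.8% across its start in CD4+ cells, and at 1.77% and 5.37% in the adjoining 326 to 578 bp, where CD11b+ cells were at 12.6% and 9.71% over 579 to 806 bp. The stretch downstream of the Tdrd6 start was therefore listed as little methylated in WT cells of both types, unlike most of the other starts.

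Genes of the meiotic chromosome axis and of recombination held 14 and 9 start regions, with median losses of 4.12 points (CD11b+) and 8.30 points (CD4+). Sycp3, an axial element of the synaptonemal complex, was at 92.9% in WT and 85.9% in Dnmt3aR878H/+ CD11b+ cells across its start, a region that also overlaps the body of Chpt1. Sycp1, the transverse filament, was at 95.9% and 90.8% in CD4+ cells. Sycp2, the partner of Sycp3, was at 89.5% and 82.2% across its start in CD11b+ cells, and at 80.5% and 60.0% in an intron (785 to 1298 bp). In CD4+ cells the Sycp2 region nearest the start (372 to 643 bp) was higher in the mutant, at 88.5% and 93.6%, and the intronic stretch at 784 to 1291 bp was at 90.8% and 81.9%. Hormad1, an axis protein that guards meiotic prophase, was at 95.9% and 92.3% in CD11b+ cells, with 95.0% and 95.2% for CD4+ cells.

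The recombination genes departed from that picture. Dmc1, the meiotic strand-exchange recombinase, was at 63.0% in WT and 41.7% in Dnmt3aR878H/+ CD11b+ cells at 247 to 536 bp from its start (chr15:79604573-79604862), a loss of 21.3 points on 10 CpG cytosines. In CD4+ cells a longer region there, with 24 CpG cytosines, was at 55.8% and 41.3%. Spo11, which makes the double-strand breaks of meiosis, was listed at 2.90% and 0.275% in CD11b+ cells upstream of its start, one of the few little-methylated stretches listed at these starts. At other annotated starts inside Spo11 the levels were between 68.2% and 97.5% in WT CD11b+ cells. Syce1, of the central element, had no listed start region in either table.

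The genes of meiotic entry and germ cell RNA binding were few and mixed. Stra8, the retinoic acid target that opens meiosis, was at 96.7% in WT and 94.1% in Dnmt3aR878H/+ CD11b+ cells in an intron, and its upstream region was at 86.3% and 75.8% in CD11b+ cells, with 87.5% and 76.7% for CD4+ cells. Dazl, an RNA-binding regulator of germ cell translation, was at 97.9% and 96.0% in the CD11b+ region printed above and 96.4% and 97.8% in the region next to it. In CD4+ cells a pair of regions downstream of the Dazl start, at 533 to 693 bp and 708 to 823 bp, was listed at 3.85% and 2.88% and at 5.55% and 0.0%. The Dazl values upstream and downstream come from different tables, because neither stretch was listed in both. Meioc, a meiotic prophase factor, was at 60.9% and 47.4% in CD11b+ cells, with 42.5% and 51.0% for CD4+ cells just upstream of its RefSeq start. Both directions were listed in CD11b+ cells. A Meioc region 733 bp upstream was at 95.3% and 89.5%, and a region 682 bp downstream was at 65.1% and 71.7%.

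The remaining germ cell proteins held 14 start regions in CD11b+ cells, all lower in Dnmt3aR878H/+, and 19 in CD4+ cells, 17 of them lower, with median losses of 7.11 and 8.40 points. Stk31, a Tudor-domain kinase, was at 96.2% in WT and 87.7% in Dnmt3aR878H/+ CD4+ cells in the part of the printed region nearest the start, while the adjoining 20 bp upstream (positions -116 to -97) were at 96.2% and 97.1%. Tex14, a protein of the bridges between germ cells, was at 83.5% and 70.6% in CD4+ cells at 10 CpG cytosines of the printed stretch, with unadjusted Kolmogorov-Smirnov p of 0.00052 there and 2.4e-06 in CD11b+ cells, the smallest of any germline start region. The q was 1 in both, and this stretch is also within 1 kb of a start of Rad51c, a DNA repair gene expressed widely. Farther upstream of Tex14, a CD4+ region (-337 to -101) was at 47.6% and 39.2%. The overlapping CD11b+ region (-224 to -99) was at 85.4% and 74.9%. Zp3, a protein of the egg coat, was at 88.7% and 76.5% in CD11b+ cells in an intron and at 82.6% and 71.8% in CD4+ cells across its start.

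Brdt, a testis bromodomain protein, was at 94.7% and 92.5% in CD11b+ cells upstream of its start. Slc25a31, a testis ADP/ATP carrier, was given above. Tuba3a, a testis tubulin, was at 89.1% and 80.5% in CD11b+ cells, with 96.7% and 91.0% for CD4+ cells, on different sides of its start. Tex101, a surface protein of male germ cells, was at 96.1% and 91.4% in CD4+ cells. Dpep3, a dipeptidase, was at 91.9% and 96.0% in CD4+ cells upstream of its start and 97.9% and 93.6% just downstream. The lowest of the means given for these genes was 80.5%. Rpl10l, a retrocopy of a ribosomal protein gene, had no listed region in either table.

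**Figure D2:**
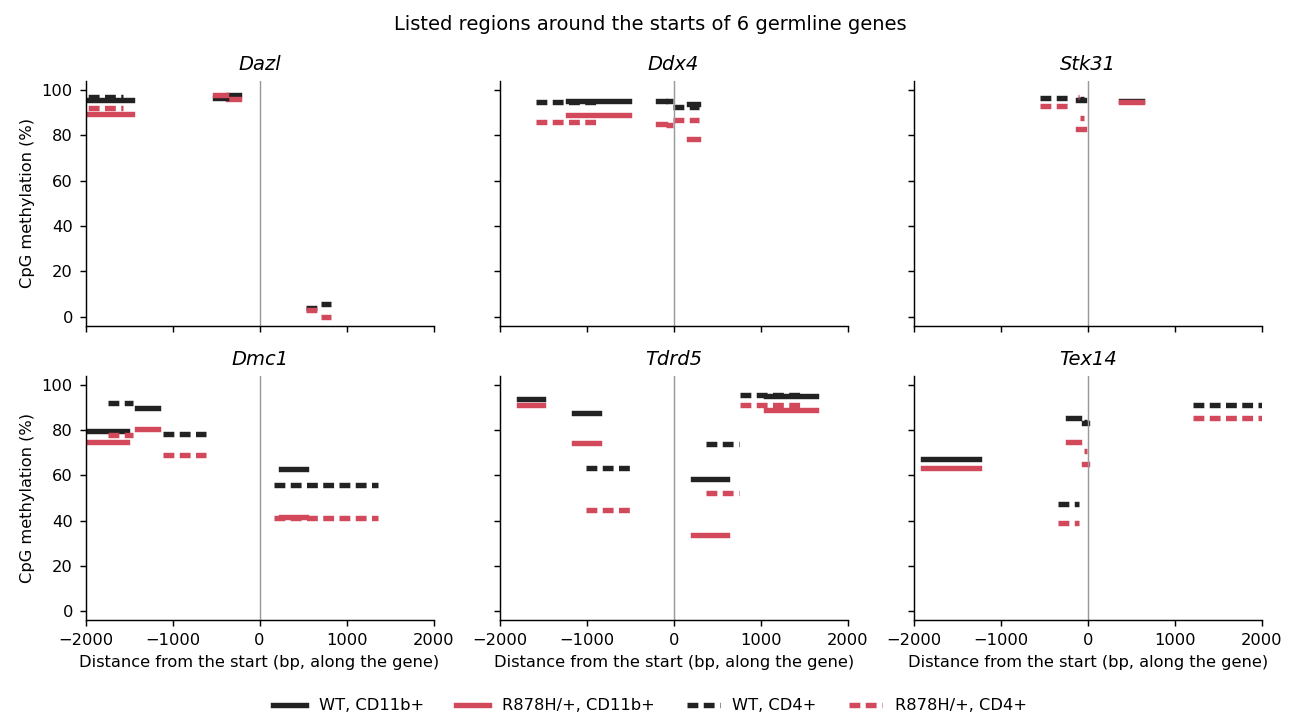
Mean CpG methylation (%) of listed regions against distance in bp from the start, along the gene, for Dazl, Ddx4, Stk31, Dmc1, Tdrd5 and Tex14, with WT in black, Dnmt3aR878H/+ in red, CD11b+ as solid and CD4+ as broken bars, each bar spanning a region. Tdrd5 shows its 2 genotypes farthest apart (58.3% and 33.8% in CD11b+ cells) and the Dazl regions downstream of the start lie near 0 in CD4+ cells.

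Regions at annotated starts other than the RefSeq or gene-model one had larger median losses. The 45 CD11b+ regions at the RefSeq or gene-model starts had a median of 92.2% in WT and 85.9% in Dnmt3aR878H/+ and a median loss of 5.83 points, against 9.22 points over 27 regions at other annotated starts. In CD4+ cells the medians of loss were 5.70 points over 51 regions and 10.9 over 22. Such starts belong to shorter transcripts inside the gene, and their WT median was lower, at 85.6% (CD11b+) and 86.4% (CD4+).

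The largest loss at any germline start was in an intron of Tex15 in CD11b+ cells, at chr8:33517930-33518150, which was at 51.3% in WT and 25.2% in Dnmt3aR878H/+. The overlapping CD4+ region was at 44.1% and 35.2%. Piwil4, the PIWI protein of fetal male germ cells, had no region near its RefSeq start, but at an internal start (chr9:14717676-14718200) it was at 34.7% and 11.3% in CD11b+ cells, and overlapping CD4+ regions were at 61.4% and 41.9% and at 28.9% and 17.6%. Dazl near an internal start (chr17:50287101-50288135), with the same bounds in both tables, was at 82.1% and 60.0% in CD11b+ cells, with 90.3% and 75.1% for CD4+ cells. Tex14 near its 3′ end was at 76.3% and 52.9% in CD11b+ cells, and the overlapping CD4+ regions were at 88.3% and 77.9% and at 77.7% and 53.3%. In CD11b+ cells 7 genes and in CD4+ cells 2 genes had a start region with a loss above 20 points, none with q below 1. That is 9.72% and 2.74% of the germline start regions, where 11.2% and 12.0% of all start regions had such a loss.

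Body regions showed losses close to those of all gene bodies. The 236 CD11b+ body regions had medians of 88.8% in WT and 82.8% in Dnmt3aR878H/+ and a median loss of 6.46 points, and all bodies of protein-coding genes gave 6.50. The 338 CD4+ body regions had medians of 90.3% and 83.5% and a median loss of 7.11 points, against 6.68 for all bodies. The mutant mean was lower in 219 of 236 and 325 of 338 of them. In CD11b+ cells 0 of 91 germline body regions with more than 10 CpG cytosines were called, where 1.43% of all such body regions were called lower. In CD4+ cells 2 of 160 were called, where the share over all bodies was 1.52%. Over all listed regions the shares called lower were 1.38% in CD11b+ cells and 1.49% in CD4+ cells.

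Both called regions were in CD4+ cells and lower in Dnmt3aR878H/+. A Ddx4 region that overlaps an exon far downstream of the start (chr13:112619392-112621249, 24 CpG cytosines) was at 81.7% in WT and 56.8% in Dnmt3aR878H/+, with q of 0.045. A Tex15 intronic region (chr8:33547347-33548473, 21 CpG cytosines) was at 82.0% and 59.5%, with q of 0.013. The CD11b+ table lists a shorter region inside the called Ddx4 stretch (chr13:112620590-112621249), with 12 CpG cytosines, at 58.8% and 29.9% and q of 1. A further CD11b+ region inside the called stretch (chr13:112619568-112620576), also with 12 CpG cytosines, was at 75.5% and 64.0% with q of 1. The CD11b+ losses over the stretch were thus 28.9 and 11.5 points, beside 24.8 points for the CD4+ region.

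The 3 largest body losses in CD11b+ cells were the Ddx4 region at 58.8% and 29.9% and a pair of Tex14 intronic regions. One of the latter (chr11:87523341-87523745) was at 55.3% in WT and 25.8% in Dnmt3aR878H/+ and the other at 58.1% and 31.8%, each on 10 CpG cytosines. In CD4+ cells the first of these Tex14 stretches was again the largest body loss, at 78.6% and 49.6% on 13 CpG cytosines, with an unadjusted Kolmogorov-Smirnov p of 2.8e-07 and q of 1. It was followed by an Asz1 exon at 68.8% and 40.6% and a Tex14 intron at 44.1% and 18.0%. In the other direction, a Tdrd5 intronic region in CD4+ cells was at 38.0% in WT and 58.8% in Dnmt3aR878H/+. Regions with a higher mutant mean numbered 17 of 236 in CD11b+ bodies and 13 of 338 in CD4+ bodies.

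**Figure D3:**
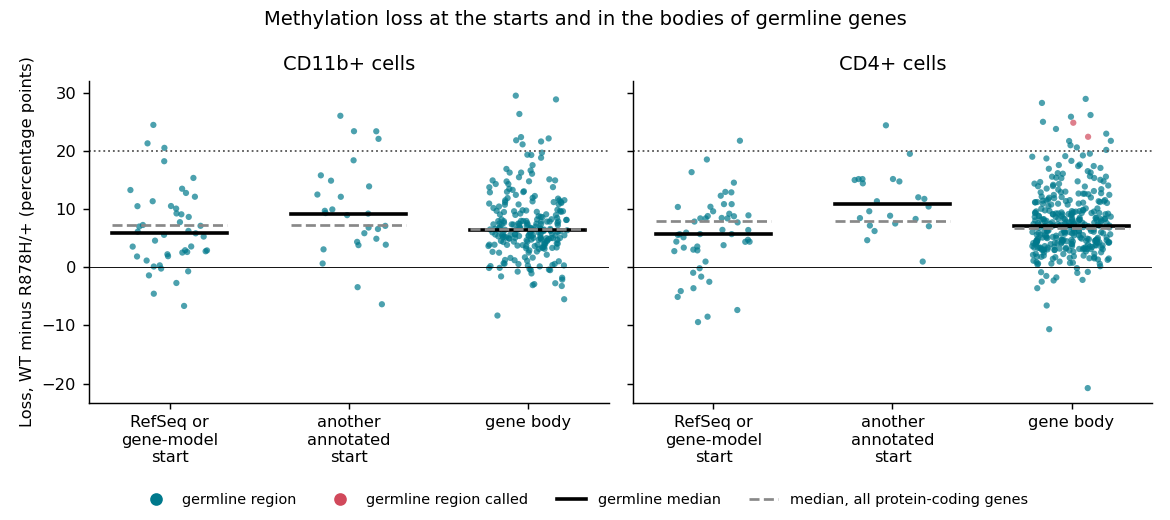
Loss in percentage points (WT minus Dnmt3aR878H/+) of every listed germline region at the RefSeq or gene-model start, at another annotated start and in the gene body, with black bars at the germline medians, broken grey bars at the medians of all protein-coding start or body regions and a dotted line at 20 points. Germline body medians (6.46 points in CD11b+ and 7.11 in CD4+ cells) lie close to the grey body bars (6.50 and 6.68). Medians at the RefSeq or gene-model starts (5.83 and 5.70) lie below the grey start bars (7.33 and 7.92). Those at other annotated starts (9.22 and 10.9) lie above the start bars. The start bars cover any annotated start, and the germline medians for that class were 6.91 and 7.85. The 2 called regions, in red, are CD4+ body regions.

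Loss varied with the level in WT cells and was largest at intermediate levels. Over all start regions of protein-coding genes its median was -0.750 (CD11b+) and 0.775 points (CD4+) below 10% in WT. It was 16.6 and 16.7 points at 50% to 60%, and 4.79 and 4.96 points at 90% or more. All start regions of protein-coding genes had a lower WT median than the germline ones, 77.5% in CD11b+ cells and 82.6% in CD4+ cells, with median losses of 7.33 and 7.92 points, and regions were therefore set side by side within WT levels. Among regions at 90% or more in WT, the 24 CD11b+ regions at germline RefSeq or gene-model starts had a median loss of 2.84 points, against 4.79 over 12115 start regions of all genes, and the 26 CD4+ regions had 4.56 against 4.96. Between 70% and 90%, the germline medians were 9.25 (15 regions) against 10.5 in CD11b+ cells and 8.58 (16 regions) against 11.4 in CD4+ cells. With the germline regions at any annotated start, the class that matches all starts, the medians were 3.67 (34 regions) and 9.82 (26 regions) in CD11b+ cells, and 5.41 (34 regions) and 10.4 (26 regions) in CD4+ cells. The CD4+ median at 90% or more was then above that of all starts and the other medians were below, and the quartiles overlap those of all starts at each level.

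Start regions at 30% to 70% in WT, whatever their start, were 10 in CD11b+ cells with a median loss of 14.4 points and 9 in CD4+ cells with 14.5, where all starts gave 15.7 and 15.8. Of these, 4 of 10 had a loss above 20 points in CD11b+ cells (Dmc1, Tdrd5, Tex15 and Piwil4) and 0 of 9 in CD4+ cells, and the shares over all starts were 30.4% and 31.1%. No germline start region at 90% or more in WT was under 70% in the mutant, in CD11b+ cells (34 regions) or in CD4+ cells (34 regions), and 99.7% and 99.5% of all start regions at that WT level were likewise at 70% or more in the mutant.

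**Figure D4:**
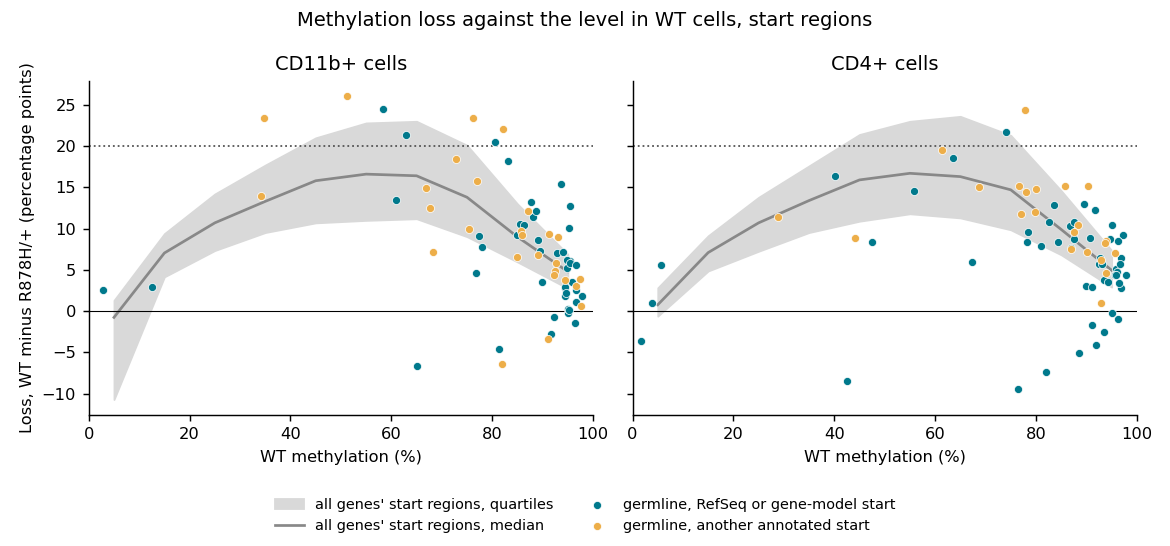
Loss in percentage points against WT methylation (%) for germline start regions at RefSeq or gene-model starts (teal) and other annotated starts (yellow), over the median (line) and quartiles (grey) of all protein-coding start regions in bins of 10 points. Most germline regions lie at the right, at 90% or more in WT (34 of 72 and 34 of 73), and the losses above the dotted line at 20 points come from WT levels of at most 82.1%.

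At stretches of the germline starts that both tables listed, losses were on balance larger in CD11b+ cells. There were 41 overlapping pairs of start regions in 21 genes, with median losses of 10.5 points (CD11b+) and 8.47 points (CD4+). The median of the paired differences, CD4+ minus CD11b+, was -3.13 points, with quartiles at -6.92 and 1.02. The loss was the larger one in CD11b+ cells in 28 of 41 pairs, and both cell types were lower in the mutant in 33. For pairs in which at least 50% of both regions overlapped, 13 of 14 were larger in CD11b+ cells. Tdrd9 near an internal start (chr12:112013324-112013354), with the same bounds in both, was at 72.8% in WT and 54.4% in Dnmt3aR878H/+ CD11b+ cells, with 76.7% and 61.6% for CD4+ cells. The intronic Mov10l1 region went opposite ways, at 78.0% and 70.2% in CD11b+ cells, with 81.9% and 89.3% for CD4+ cells. Without values of single mice the difference between cell types was not tested, and a region can enter several pairs. Overlapping start regions of all genes were not paired in this way, so the pairs do not set germline genes apart. Over all listed germline start regions the median loss was instead smaller in CD11b+ cells (6.91 against 7.85 points). All start regions of protein-coding genes gave 7.33 against 7.92. The WT medians of the 41 pairs were 85.6% (CD11b+) and 84.4% (CD4+), and those of the 14 pairs 82.6% and 85.2%.

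**Figure D5:**
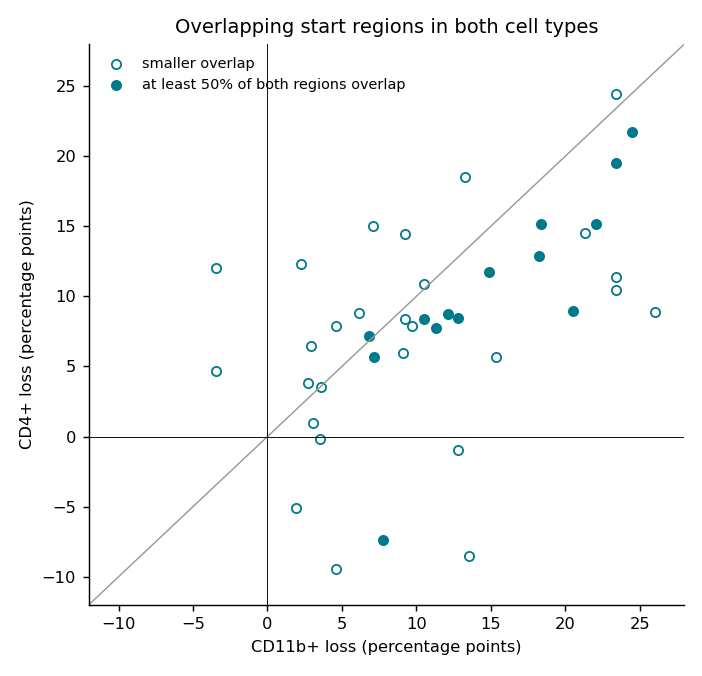
CD4+ loss against CD11b+ loss, both in percentage points, for 41 overlapping pairs of germline start regions, filled where at least 50% of both regions overlap, with a line of equal loss. Of the 41 points, 28 lie below the line, and of the 14 filled points 13 do.

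The tables speak for a minor share of the CpGs at these starts. Of 2297 CpGs in the genome within 1 kb of the 32 starts, listed regions covered 376 (16.4%) in CD11b+ cells and 549 (23.9%) in CD4+ cells. Within 250 bp they covered 169 of 1012 (16.7%) and 264 (26.1%), and 15 genes had none of them covered in each cell type. Coverage ran from 0 for Piwil4, Rpl10l and Syce1 in both tables. It reached 42 of 59 CpGs within 250 bp of the Ddx4 start in CD4+ cells. These counts take every CpG between the bounds of a listed region, and the means can rest on far fewer. The CD4+ Ddx4 regions at chr13:112652018-112652315 and chr13:112652318-112652400 list 10 CpG cytosines each, with both strands counted. The share of CpGs behind the means is therefore smaller than the coverage given here. A level for the CpGs outside listed regions is not given here, and no mean above stands for a whole promoter.

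The promoters of these genes were richer in CpG and in a pair of short motifs than other promoters. For 28 of 32 genes a RefSeq promoter was matched (GRCm38.p6, 250 bases before to 50 after the start), with a median of 18.5 CpGs and an observed-to-expected CpG ratio of 0.680, against 13.0 and 0.576 over 17492 protein-coding promoters. The E-box CACGTG, a sequence bound by MAX-containing dimers, was in 13 of 28 (46.4%) and in 7.90% of all. The E2F-type motif TCCCGC, searched on both strands, was in 14 of 28 and in 25.7% of all. Both motifs were in 7 of the 28 promoters and in 2.74% of all, the 7 being those of Ddx4, Hormad1, Mael, Slc25a31, Sycp1, Sycp3 and Zp3. CACGTG reads alike on both strands and can share 1 base with TCCCGC. Both contain a CpG, and a match is a string of letters, not a bound site. The Stk31 E-box begins at position -55 from the start, inside the region whose mean was lower in the mutant in both cell types.

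Germline genes outside the 32 had start losses of like size, with smaller shares of highly methylated start regions. Further lists held 18 piRNA pathway, 30 meiosis, 15 spermatid and 11 oocyte genes. Their median start losses, in that order, were 7.61, 6.66, 6.21 and 6.14 points in CD11b+ cells and 8.52, 6.97, 8.39 and 8.78 points in CD4+ cells. At 70% or more in WT were 76.1%, 61.8%, 56.0% and 64.0% of their CD11b+ start regions, where the 32 genes gave 83.3%. In CD4+ cells the shares were 79.1%, 71.0%, 72.0% and 51.9%, against 82.2%. A called start region was found for 1 gene of these lists. Rec8, the meiotic cohesin subunit, was at 49.1% in WT and 22.8% in Dnmt3aR878H/+ CD4+ cells over 35 CpG cytosines around its start. Its q was 3.5e-05. In CD4+ cells the start regions with more than 10 CpG cytosines numbered 19, 40, 9 and 14 over the lists, in the same order. In CD11b+ cells they numbered 16, 21, 9 and 7, with 0 called. Of all such start regions, 3.35% (CD4+) and 2.86% (CD11b+) were called lower. Among the lists' body regions 1 was called, upstream of Nanos3, an RNA-binding germ cell factor, at 56.5% and 12.2% in CD11b+ cells. Its q was 4.6e-07. Body regions with more than 10 CpG cytosines numbered 56, 97, 14 and 10 over the lists in CD11b+ cells, where 1.43% of all such body regions were called lower. In CD4+ cells they numbered 76, 145, 17 and 10, with 0 called, and the share over all bodies was 1.52%.

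Lineage genes were checked in WT cells. Regions of 7 of 9 T cell genes had the lower WT median in CD4+ cells, among them Cd2 (43.0% against 79.0%). In CD11b+ cells 7 of 8 myeloid genes had it, among them Cebpa (39.3% against 84.8%). The T cell genes that went the other way were Cd3e (85.7% in CD4+ against 77.5% in CD11b+ cells) and Cd3d (87.9% against 73.6%). The myeloid one was Itgam, the gene of CD11b itself (91.2% in CD11b+ against 88.5% in CD4+ cells). All 5 B cell genes also had the lower median in CD11b+ cells, with Cd79a at 20.9% against 80.9%. The tables list different regions of these genes, and the part of other cells of the spleen in the CD11b+ means was not tested.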

How the data were processed

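Whole-genome bisulfite libraries of splenic CD11b+ and CD4+ cells were made with the Zymo-Seq kit, and the authors mapped reads to mm10 with BISCUIT and compared genotypes with metilene. FastQC is named in the submitters' processing notes, and versions are not given in the sources used here. The authors deposited 1 metilene table per cell type, with region bounds, a mean methylation percent for either genotype, their difference, the number of CpG cytosines, p-values and q-values. Neither has a header, and 0 columns give values per sample. The first group was read as WT from metilene's column order and the study's density plots. The overall direction of the differences rests on that reading. The deposited q-value is close to a fixed multiple of the Kolmogorov-Smirnov p in each table, with a ceiling of 1. Listed regions hold at least 10 CpG cytosines, and 58.2% (CD11b+) and 55.3% (CD4+) hold exactly that number, so they could not be called. The number counts cytosines of both strands, since it exceeds the CpG dinucleotides in 92.0% and 95.8% of regions and exceeds the CpG cytosines in 0%. All regions compared (100%) begin on a CpG of GRCm38. Depth is unknown.

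Regions were joined to GENCODE release 21 gene models and RefSeq promoters with Python 3.11.15, pandas 2.3.3, numpy 2.4.6 and pysam 0.24.0 (figures: matplotlib 3.10.9), and the joins and calls were tested on simulated regions. The start of a gene was its first RefSeq promoter start (28 genes) or else the gene-model start (Piwil2, Spo11, Tdrd6 and Tex15). Every gene was named, by the region nearest its start (ties: most CpG cytosines), by the called body regions and the 3 largest body losses of each table, and other lists by their called regions. Further regions of named genes were chosen after their values were seen. No test beyond metilene's own was run, since a design needs values per mouse. The authors' group differences were recomputed from the 2 means. The members and lists were chosen with earlier results of these data known. Thresholds, windows, weights and overlap were varied as alternatives.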

Additional observations from a re-analysis of the deposited data

How the results depend on the processing

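Of 91 values recomputed under another setting, 81 stayed within 1.5 times of the reported value, 10 moved further and 0 reversed. Part of the 81 could not move, because no germline start region had q under 0.05. Start calls thus stayed at 0 at any size or cytosine minimum, or narrower window, that kept a q threshold. Stricter settings could likewise not add to the 0 genes called in CD11b+ cells. All 42 recomputed medians of loss stayed within that factor, under windows of 500 bp and 2 kb, gene-model or RefSeq starts alone (the latter chosen after seeing the data), other body extensions, weighting by CpG cytosines, regions with more than 10 cytosines, autosomes alone and WT levels of 70% or more. Without a q threshold the called start regions were 3 in CD11b+ and 1 in CD4+ cells, the genes with a called region 5 and 6, and the share of all start regions called lower 13.7% and 14.3%. With q below 0.01 or a difference above 30 points, 0 genes had a called region in CD4+ cells, in place of 2. With more than 20 CpG cytosines the share of all start regions called lower was 13.1% and 15.6%, over fewer and longer regions. Germline start calls could only be 0 there, and germline start regions held at most 25 (CD11b+) and 24 (CD4+) CpG cytosines. With a reciprocal overlap of 50% the median difference between the cell types was -3.50 points. No paired analysis was possible because the tables hold group means alone, and for the same reason no mouse could be left out. The limits are the unknown depth, the lack of an error between mice and the few CpGs listed at each start.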
